A study of Mus musculus with 28 samples.

Results

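The genes described here encode the CaMKII, calmodulin, calcineurin and neurogranin signalling module in RNA of mouse brain synaptosomes. The 9 members were fixed by name: the CaMKII subunit genes Camk2a, Camk2b, Camk2d and Camk2g, the calmodulin genes Calm2 and Calm3, Nrgn, and the calcineurin genes Ppp3ca and Ppp3r1. All 9 were found, among 25239 genes in the table of the SynSURF preparation and 24443 in the table of the sucrose gradient preparation, and all 9 passed the filter on low counts in both. Synaptosomes are pinched-off nerve terminals, often with attached postsynaptic membrane. Each preparation compared sorted synaptosomes with the crude synaptosome pellet, with 10 sorted and 10 crude SynSURF libraries and 3 sorted and 3 crude sucrose libraries of poly(A) RNA. Of the 28 libraries, 2 more hold total RNA from sorted particles and were not used.

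The 4 groups share the tissue, brain. The labels give no strain, age, genotype or treatment, and they do not say whether replicates came from separate animals, so the p-values below measure only the spread between these libraries, which may be technical. The labels call the cell type primary neurons. A crude pellet was taken up in PBS and sorted particles in TCEP, a reducing agent, before RNA was amplified to cDNA with a whole-transcriptome kit for single cells, so the sorted and crude groups also differ in the resuspension liquid.

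Calcium that enters a synapse binds calmodulin, a small calcium sensor. Calcium-loaded calmodulin switches on CaMKII, a multi-subunit kinase that phosphorylates glutamate receptors and scaffold proteins during synaptic potentiation, and calcineurin, a phosphatase that acts on many proteins of the synapse and takes part in depression. Neurogranin binds calmodulin at low calcium in dendrites and spines. The mRNAs of Camk2a and of Nrgn are textbook examples of messages found in dendrites.

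The calmodulin messages can be counted apart because they differ in the bases they use for the same protein. The first 90 of 450 coding bases of both genes (GENCODE M21 transcripts, GRCm38) are shown to make this visible. Capitals mark the 15 positions at which they differ.

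Calm2: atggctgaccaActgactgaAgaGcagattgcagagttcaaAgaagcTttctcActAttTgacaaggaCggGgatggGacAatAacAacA
Calm3: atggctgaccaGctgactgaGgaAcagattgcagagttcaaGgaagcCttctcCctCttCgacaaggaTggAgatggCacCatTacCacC

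Calm2 lies on chromosome 17, 87433412 to 87446935, minus strand, and Calm3 on chromosome 7, 16915379 to 16924114, minus strand. The coding sequences had the same translation, and 82.67% of coding bases were identical between Calm2 and Calm3. Their longest shared run was 17 bases. Across whole transcripts, 9.722% of the 50-base words of Calm2 and 2.518% of those of Calm3 also occurred in other annotated genes, mostly the predicted genes Gm7308 and Gm5881. For Ppp3r1 413 of 3177 such words did, all in Wdr92. For Camk2a and Camk2b the share was 0.293% and 0.159%, and for Camk2d, Camk2g, Nrgn and Ppp3ca it was 0. How the authors' counting split such reads is not given in the sources used here, so the levels of Calm2 and Ppp3r1 carry that uncertainty.

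The other members lie at the following places on GRCm38. Camk2a is on chromosome 18, 60925618 to 60988152, plus strand. Camk2b is on chromosome 11, 5969644 to 6066362, minus strand, and Camk2d on chromosome 3, 126596302 to 126846326, plus strand. Camk2g is on chromosome 14, 20734875 to 20794088, minus strand. Nrgn is on chromosome 9, 37544492 to 37552904, minus strand. Ppp3ca is on chromosome 3, 136670124 to 136937727, plus strand, and Ppp3r1 on chromosome 11, 17159263 to 17200375, plus strand.

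Depth differed between the groups. Totals ran from 76520 to 1812759 counts in SynSURF sorted libraries and from 1035423 to 8897238 in SynSURF crude libraries, and from 3018604 to 5196050 in sucrose sorted libraries and from 1844679 to 6793374 in sucrose crude libraries. Together the 9 members took 208 to 4011 counts in a SynSURF sorted library and 5419 to 55945 in a crude one. Levels are given as CPM, which is the count divided by the TMM-scaled library total. Summed markers of oligodendrocytes, the myelin-forming cells, ran from 19321 to 98867 CPM in SynSURF sorted libraries and from 2922 to 6544 CPM in crude ones. Summed astrocyte markers ran from 0 to 1418 CPM against 1408 to 2724 CPM, and excitatory neuron markers from 0 to 406 CPM against 153 to 284 CPM. Presynaptic markers ran from 1112 to 11518 CPM in sorted and from 3281 to 5193 CPM in crude libraries, and postsynaptic markers from 40.95 to 1347 CPM against 337 to 577 CPM. Of the defining synaptic markers, Syp and Shank1 had no count in any SynSURF sorted library. In the sucrose preparation the summed presynaptic markers ran from 4786 to 5774 CPM in sorted and from 5163 to 6076 CPM in crude libraries. The part these differences in depth and markers play in the results below was not tested. In such pooled particles, fewer particles of a kind and less RNA per particle cannot be told apart.

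Across both preparations the module was present in every group, and no member passed the test between sorted and crude synaptosomes. In the SynSURF comparison 0 of 9 members rose and 0 fell at an adjusted p under 0.05 (edgeR quasi-likelihood test), where 7.62% of all 6598 genes tested rose and 22.1% fell. At an unadjusted p under 0.05, 2 of 9 members passed, both higher in sorted libraries, against 39.9% of all genes in either direction. DESeq2 called 2 of 9 higher, Calm2 and Nrgn, and Camk2d was called lower with library totals (-1.85, edgeR adjusted p = 0.0158), with voom (-1.45, limma adjusted p = 0.0207) and without sorted replicates 1 and 4. The median log2 fold change of the 9 members was 0.89, and that of all genes tested was -0.18. With library totals in place of TMM factors the same medians were -0.18 and -1.28, so fold changes in this preparation shift with the scaling. The median of all genes is no fixed reference, since it also moved with the filter and with depth. It was -1.39 with no filter and -0.48 at a mean CPM of at least 5, where the members' median was 0.54 and 0.73. With crude counts thinned to sorted depth it was 0.48, against 1.05 for the 8 members tested. The members' median was 0.20 without sorted replicate 6 and 0.40 without sorted replicate 10, and it was -0.33 with a replicate block and -0.41 with voom, where the median of all genes was -1.97 and -1.13. In the sucrose comparison 0 of 9 members rose and 0 fell, as did 0.0% of the 10589 genes tested in either direction, and 0 of 9 reached an unadjusted p under 0.05, against 3.06% of all genes. DESeq2 also called 0 members there. The members' median log2 fold change in the sucrose comparison was -0.11, and that of all genes was -0.04.

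**Figure D1:**
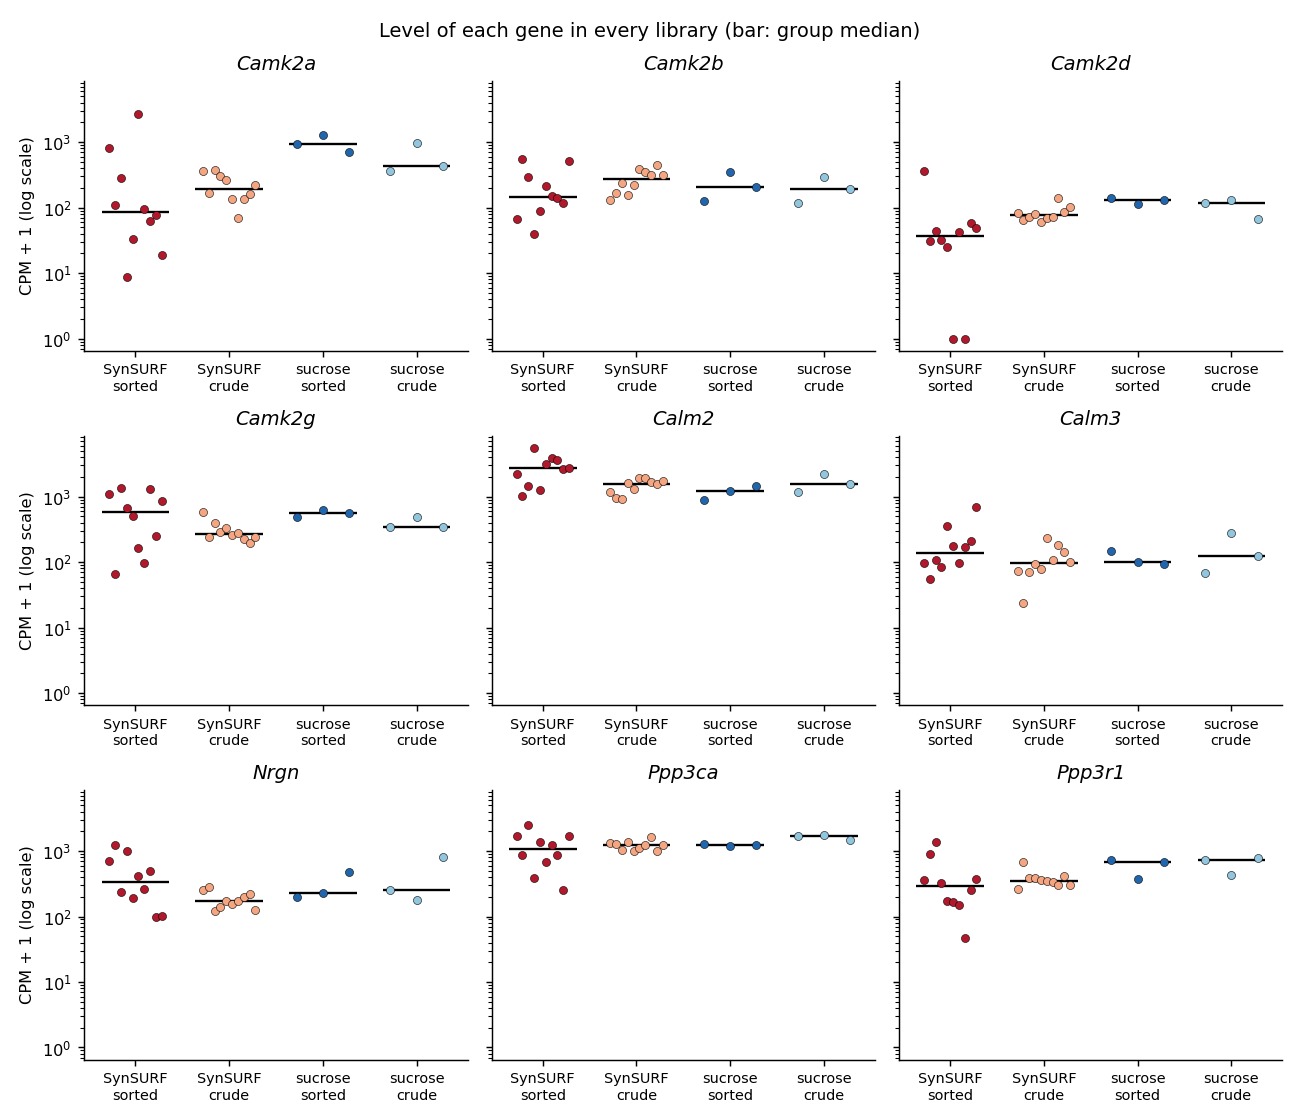
Level of each of the 9 genes in every library, as CPM plus 1 on a log axis, with sorted libraries left of crude ones in each preparation and replicates in number order. Points are libraries and bars are group medians. SynSURF sorted libraries spread furthest, as for Camk2a (7.62 to 2642 CPM, against 67.8 to 376 CPM in crude libraries), and the 2 points of Camk2d at the bottom are libraries with no count.

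**Figure D2:**
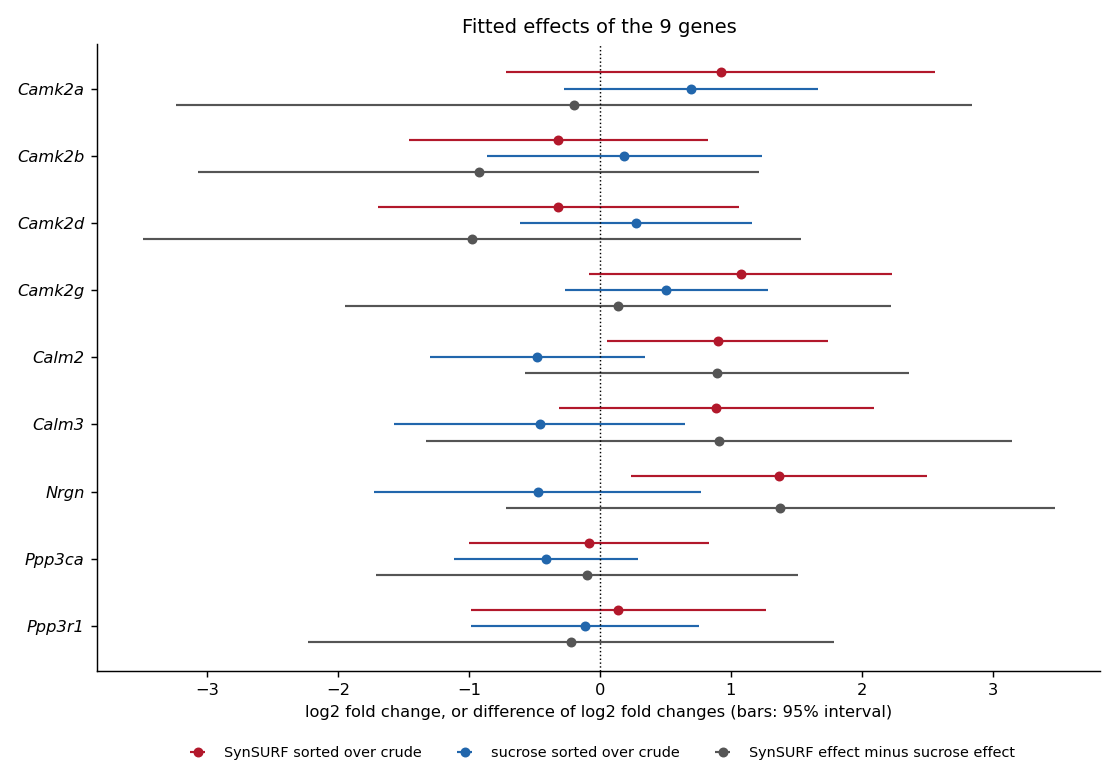
Fitted log2 fold change of sorted over crude for each gene in the SynSURF and the sucrose preparation, and the difference of both effects from a joint fit. Lines are 95% intervals from edgeR. The SynSURF intervals of Calm2 (0.05 to 1.75) and Nrgn (0.24 to 2.50) lie above 0 before adjustment, and every interval of the other genes includes 0.

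Camk2a, which encodes the alpha subunit of CaMKII and is the main forebrain form, was carried in SynSURF sorted libraries by few of them. Its level was 7.62 CPM at the lowest, 86.0 CPM at the median and 2642 CPM at the highest in the 10 sorted libraries, against 67.8, 192 and 376 CPM in the 10 crude libraries. The highest value, in sorted replicate 6, rested on 209 counts (95% Poisson interval 2296 to 3026 CPM, counting error only) and made up 63.9% of the sum over the sorted libraries. Replicate 1 followed with 812 CPM from 439 counts, while replicate 4 had 1 count and the median sorted library 5.5. Of the sorted libraries, 2 lay above every crude library, 4 below every crude library and 4 within the crude range. The log2 fold change was 0.92 ± 0.80 (SE, n = 10 each, 95% interval -0.71 to 2.56, edgeR adjusted p = 0.40). Without sorted replicate 6 it was -0.40 (edgeR adjusted p = 0.687), and it was also below 0 with library totals, -0.09.

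No other subunit gene of the kinase passed the test either. Camk2b, which encodes the actin-binding beta subunit, had 38.1, 144 and 549 CPM at the lowest, median and highest of the SynSURF sorted libraries, against 130, 272 and 440 CPM in crude libraries. Its groups overlapped, with 4 sorted libraries below every crude library and 2 above, and the log2 fold change was -0.32 ± 0.56 (SE, 95% interval -1.46 to 0.82, edgeR adjusted p = 0.694). Camk2g, which encodes the gamma subunit, had 65.6, 581 and 1370 CPM in sorted libraries, against 197, 265 and 573 CPM in crude libraries. For this gene 5 sorted libraries lay above every crude library and 3 below every one, and the log2 fold change was 1.08 ± 0.57 (SE, 95% interval -0.08 to 2.23, edgeR adjusted p = 0.155).

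Camk2d, which encodes the delta subunit, best known from heart, was the weakest of the members. Its level was 0, 35.7 and 357 CPM at the lowest, median and highest of the SynSURF sorted libraries, against 59.0, 74.8 and 137 CPM in crude libraries. Sorted replicates 6 and 8 had no count, which at a floor of 3 counts per library still allows 37.9 CPM in replicate 6 and 45.7 CPM in replicate 8. In all, 9 of 10 sorted libraries lay below every crude library with TMM scaling. Replicate 1, with 193 counts and 357 CPM, lay above every one, and it had the lowest TMM factor, 0.303. The fitted log2 fold change was -0.32 ± 0.67 (SE, 95% interval -1.70 to 1.06, edgeR adjusted p = 0.748). It was -1.43 without replicate 1 (edgeR adjusted p = 0.0596) and -1.48 without replicates 1 and 4 (edgeR adjusted p = 0.0441), so for this gene the call turned on which sorted libraries entered. No member had all 10 sorted libraries on 1 side of all 10 crude ones, which was so below for 8.73% and above for 0.152% of the genes tested.

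The make-up of the CaMKII message varied widely between libraries of 1 group. Shares were taken from levels per kilobase of the longest annotated transcript, summed over the 4 genes. They depend on that choice, since Camk2g has 3703 bases at the longest and 673 at the median transcript. In sucrose sorted libraries the median levels of Camk2g and Camk2a were 150 and 187 CPM per kilobase by longest length. By median transcript length they were 823 and 535. In SynSURF sorted libraries Camk2a made up 0.785% to 84.6% of that sum and Camk2g 7.07% to 91.7%, with medians of 11.7% and 59.2%. SynSURF crude libraries ranged from 7.40% to 31.96% for Camk2a and from 25.6% to 56.6% for Camk2g, with medians of 21.9% and 40.3%. By longest length, the leading gene of a SynSURF sorted library was Camk2g in most, Camk2b in replicates 2 and 7, and Camk2a in replicate 6. In the sucrose preparation Camk2a made up 50.3%, 48.2% and 38.5% of the sum in sorted replicates 1, 2 and 3, against 34.5%, 46.4% and 36.8% in crude replicates 1, 2 and 3. Within each sucrose pair of equal number the sorted library had the higher Camk2a share.

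**Figure D3:**
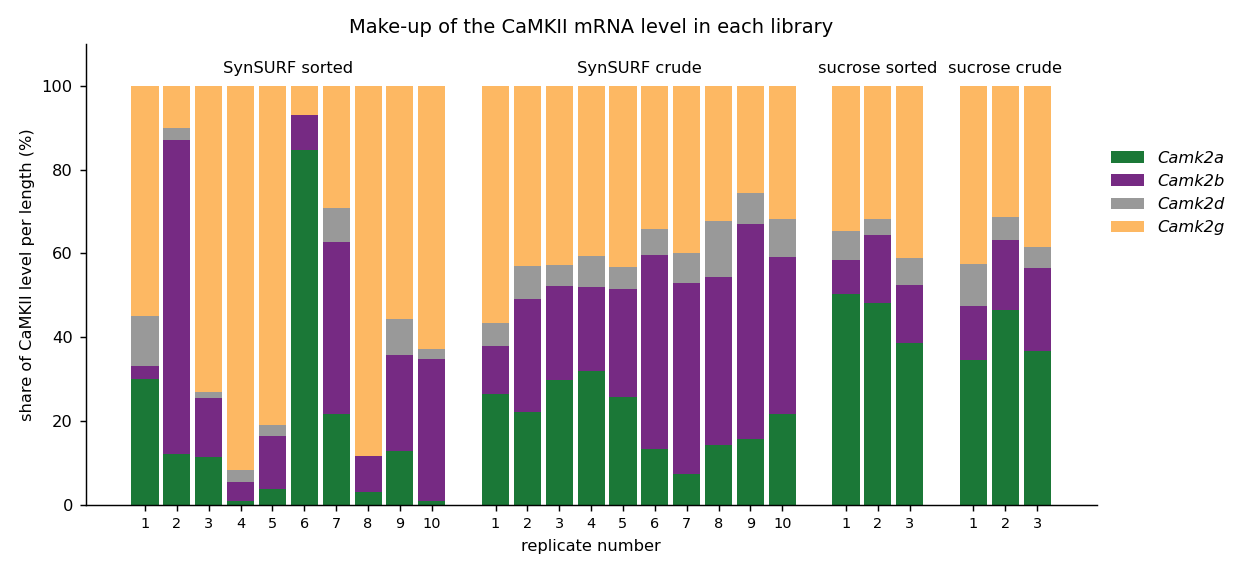
Make-up of the CaMKII mRNA level in each of the 26 libraries, as the share in percent of the level per kilobase summed over Camk2a, Camk2b, Camk2d and Camk2g. Each bar is 1 library, with sorted libraries left of crude ones in each preparation. Lengths are those of the longest annotated transcript, and the shares depend on that choice. Camk2a takes 84.6% in SynSURF sorted replicate 6 and 0.785% in replicate 4, while its share runs from 38.5% to 50.3% in sucrose sorted libraries and from 34.5% to 46.4% in sucrose crude libraries.

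The ratio of Camk2a to Camk2b per length also varied within the crude SynSURF pellets, which were deeply counted. It was 2.28, 0.819, 1.33, 1.60 and 0.996 in crude replicates 1 to 5 and 0.285, 0.162, 0.354, 0.307 and 0.574 in crude replicates 6 to 10. Replicates 1 to 5 thus held the 5 highest ratios, and they also held the 5 lowest totals, 1035423 to 4384015 counts, against 4861155 to 8897238 counts in replicates 6 to 10. The labels do not tell these libraries apart, and the part of depth in the ratio was not tested. In the sucrose preparation the ratio was 6.08, 3.00 and 2.77 in sorted replicates 1, 2 and 3, against 2.66, 2.75 and 1.87 in crude replicates 1, 2 and 3. By the longest annotated transcripts (4970 bases for Camk2a and 4125 for Camk2b), all 6 sucrose libraries lay above 1, where Camk2a exceeds Camk2b. By that length 7 of 10 SynSURF crude libraries lay below it. By median transcript length (1734 and 1875 bases) every ratio would be higher, so crude libraries just under 1 need not stay below it.

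Calm2 was the most abundant member per length in all 4 groups. Its level was 1026, 2690 and 5559 CPM at the lowest, median and highest of the SynSURF sorted libraries, against 914, 1580 and 1910 CPM in crude libraries, from at least 137 counts in each library. Of the sorted libraries 7 lay above every crude library and 3 within the crude range. The log2 fold change was 0.90 ± 0.41 (SE, n = 10 each, 95% interval 0.05 to 1.75), and it did not pass the adjustment over all genes (edgeR p = 0.0378, adjusted p = 0.102). DESeq2 called it at 1.06 (DESeq2 adjusted p = 0.00902), and with library totals it was -0.18.

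Calm3, another calmodulin gene, was a minor part of the pair. Its level was 53.7, 137 and 688 CPM in SynSURF sorted libraries, against 22.7, 96.0 and 229 CPM in crude libraries, with the highest in sorted replicate 10. The log2 fold change was 0.89 ± 0.59 (SE, 95% interval -0.31 to 2.09, edgeR adjusted p = 0.259), and 0.40 without replicate 10. Per length, Calm2 made up 87.1% to 99.2% of the Calm2 and Calm3 sum in SynSURF sorted libraries and 94.1% to 98.8% in crude ones, so the larger share of Calm2 held in every library.

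Nrgn, which encodes neurogranin, had the lowest adjusted p of the members in SynSURF with edgeR. Its level was 95.7, 338 and 1247 CPM at the lowest, median and highest of the sorted libraries, against 120, 172 and 285 CPM in crude libraries. In sorted libraries 5 lay above every crude library, 3 within the crude range and 2 below every crude library, from as few as 5 counts in replicate 9. The log2 fold change was 1.37 ± 0.55 (SE, n = 10 each, 95% interval 0.24 to 2.50), short of the threshold after adjustment (edgeR p = 0.0197, adjusted p = 0.0620). It passed when sorted replicate 3, 5, 9 or 10 was left out, with 1.45 without replicate 10 (edgeR adjusted p = 0.0368), and was 1.05 without replicate 2 (edgeR adjusted p = 0.129). DESeq2 gave 1.41 (DESeq2 adjusted p = 0.00391), and library totals gave 0.28 (edgeR adjusted p = 0.702).

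The calcineurin members had fitted changes near 0 in SynSURF. Ppp3ca, which encodes the catalytic A alpha subunit, had 249, 1066 and 2465 CPM at the lowest, median and highest of the sorted libraries, against 1002, 1245 and 1641 CPM in crude libraries. Its log2 fold change was -0.08 ± 0.45 (SE, 95% interval -0.997 to 0.83, edgeR adjusted p = 0.906), with 5 sorted libraries below every crude library and 3 above. Ppp3r1, which encodes the calcium-binding regulatory B subunit, had 45.7, 288 and 1370 CPM in sorted libraries, against 261, 349 and 668 CPM in crude libraries. Its log2 fold change was 0.14 ± 0.55 (SE, 95% interval -0.99 to 1.27, edgeR adjusted p = 0.867), and it was -0.32 without sorted replicate 3, -0.12 without sorted replicate 2 and -0.81 with library totals. These intervals are wide, and they do not show that the levels were alike.

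Ppp3cb, which encodes the A beta catalytic subunit and is not a member, rested on 2 SynSURF sorted libraries. It had 4135 CPM in sorted replicate 4, 1851 CPM in replicate 1 and no count in replicates 3, 7, 8 and 9, against 53.2, 96.5 and 140 CPM at the lowest, median and highest of the crude libraries. The log2 fold change was 2.68 ± 1.11 (SE, edgeR adjusted p = 0.0693), and without replicates 1 and 4 it was -2.23 (edgeR adjusted p = 0.0160).

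In the sucrose preparation the sorted libraries were as deep as the crude ones and all 9 members had a smaller coefficient of variation in sucrose than in SynSURF sorted libraries. Among crude libraries it was larger in sucrose for some, as for Nrgn (84.0% against 29.6%) and Calm3 (69.1% against 55.1%). Ppp3ca was the only member whose groups did not overlap: it had 1265, 1192 and 1218 CPM in sorted replicates 1, 2 and 3, against 1671, 1734 and 1482 CPM in crude replicates 1, 2 and 3. Between sucrose groups its log2 fold change was -0.41 ± 0.32 (SE, n = 3 each, 95% interval -1.11 to 0.29, edgeR adjusted p = 0.999). In this preparation every sorted library lay below every crude one for 3.84% of all genes tested and above for 4.57%, so 1 of 9 members below and 0 of 9 above are to be read against those shares.

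Camk2a had 928, 1269 and 696 CPM in sucrose sorted replicates 1, 2 and 3, against 367, 981 and 433 CPM in crude replicates 1, 2 and 3. Each sorted library was above the crude library of its own number, and the groups overlapped through crude replicate 2. Its log2 fold change was 0.70 ± 0.44 (SE, n = 3 each, 95% interval -0.27 to 1.67, edgeR adjusted p = 0.999). Camk2g followed the same order within pairs, with 478, 624 and 554 CPM in sorted replicates, against 337, 491 and 338 CPM in crude ones (log2 fold change 0.51 ± 0.35, SE, edgeR adjusted p = 0.999).

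Camk2b had 127, 351 and 209 CPM in sucrose sorted replicates 1, 2 and 3, against 115, 296 and 192 CPM in crude replicates 1, 2 and 3. Its libraries differed by number far more than by group, with replicate 2 the highest in both. Camk2d had 137, 111 and 131 CPM in sorted replicates, against 117, 130 and 64.8 CPM in crude ones. Their log2 fold changes were 0.19 ± 0.48 and 0.28 ± 0.41 (SE), and that of Camk2b was -0.27 without sorted replicate 2 and -0.09 without crude replicate 1.

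Calm2 had 900, 1197 and 1458 CPM in sucrose sorted replicates 1, 2 and 3, against 1158, 2242 and 1549 CPM in crude replicates 1, 2 and 3. All 3 sorted libraries lay below the crude library of their own number, and the log2 fold change was -0.48 ± 0.38 (SE, edgeR adjusted p = 0.999). Calm3 had 147, 99.1 and 93.4 CPM in sorted replicates, against 67.9, 274 and 123 CPM in crude ones. Its log2 fold change of -0.46 ± 0.51 (SE) was 0.25 without crude replicate 2.

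Nrgn had 197, 225 and 475 CPM in sucrose sorted replicates 1, 2 and 3, against 251, 180 and 818 CPM in crude replicates 1, 2 and 3. Replicate 3 was the highest in both groups, and the log2 fold change of -0.48 ± 0.57 (SE) was 0.46 without crude replicate 3. Ppp3r1 had 720, 378 and 677 CPM in sorted replicates, against 720, 425 and 774 CPM in crude ones, and replicate 2 was the lowest in both. Its log2 fold change was -0.11 ± 0.40 (SE), 0.13 without sorted replicate 2 and 0.04 without crude replicate 3.

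Whether sorting moved a gene differently in the preparations was tested as the SynSURF effect minus the sucrose effect in a joint fit of all 26 libraries. Of the 9 members 0 were higher and 0 lower, where 0.299% of 10713 genes were higher and 17.3% lower, and 0 of 9 reached an unadjusted p under 0.05, against 30.8% of all genes. For Nrgn the difference was 1.38 ± 1.03 on the log2 scale (SE, 95% interval -0.72 to 3.48, edgeR adjusted p = 0.395). It was 0.90 ± 0.72 for Calm2 (SE, 95% interval -0.57 to 2.36, edgeR adjusted p = 0.438) and 0.91 ± 1.10 for Calm3. It was -0.98 ± 1.23 for Camk2d, -0.92 ± 1.05 for Camk2b and -0.20 ± 1.49 for Camk2a. These values moved with the setting: Camk2d ran from -2.13 to -2.0 under library totals, a replicate block or without sorted replicates 1 and 4, and was -2.18 without sorted replicate 1 alone, while Camk2a was -2.09 with the block and Nrgn ran from 0.75 to 1.15. The joint fit scales the libraries of both tables together, so these values need not equal the gap between the separate fits.

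Between genes, levels were compared per kilobase of the longest annotated transcript. In the SynSURF crude libraries the order of medians ran from Calm2 (1311 CPM per kilobase) through Ppp3ca (262), Ppp3r1 (122), Nrgn (119), Camk2g (71.5), Camk2b (66.0), Calm3 (41.9) and Camk2a (38.7) to Camk2d (13.5). Only the step below Calm2 had no overlap of library ranges between neighbours in that group. In SynSURF sorted libraries Calm2 (2232 CPM per kilobase) was again the first and Camk2d (6.46) the last, Nrgn (233) was the second, and the ranges of all neighbours overlapped. By median transcript length Nrgn took place 4 in those libraries. Camk2a took place 8 of 9 in both SynSURF groups, place 4 in sucrose sorted libraries with 187 CPM per kilobase and place 6 in sucrose crude libraries with 87.1. These tables were scaled separately, so levels are not compared across preparations by a test.

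**Figure D4:**
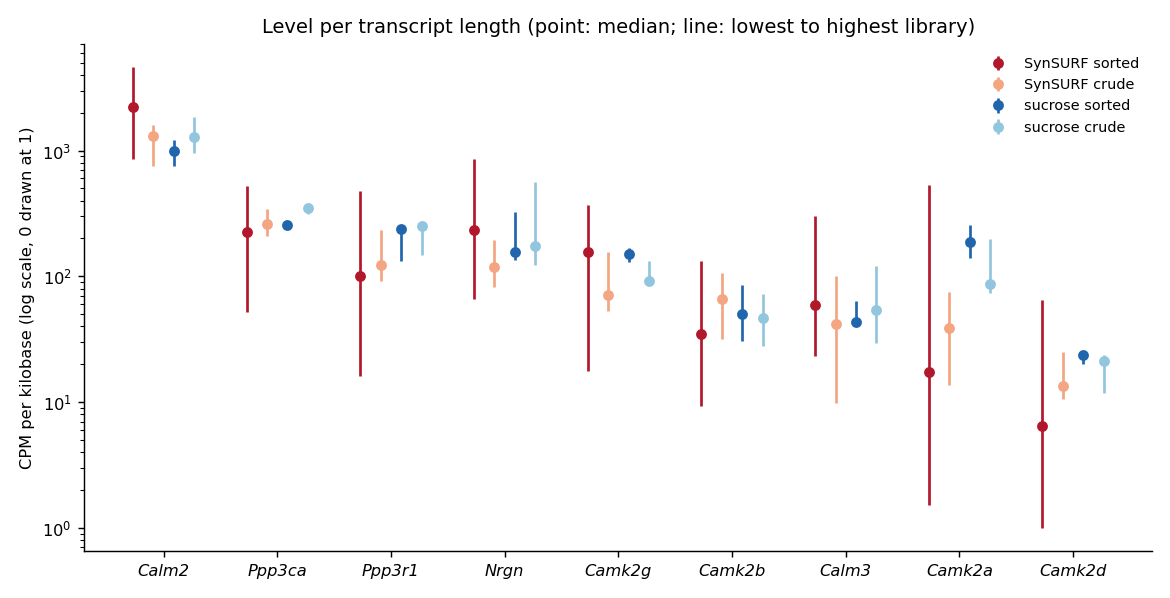
Level of each gene per kilobase of its longest annotated transcript, on a log axis, in the order of the SynSURF crude medians. Points are group medians and lines run from the lowest to the highest library, with 0 drawn at 1. Calm2 is the highest and Camk2d the lowest in each of the 4 groups, and the line of Camk2a in SynSURF sorted libraries runs from 1.53 to 532.

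Among the 10 SynSURF crude libraries, where depth was highest, the members did not form 1 block. Calm2 and Calm3 ran together (Pearson r = 0.781, Spearman rho = 0.855, and r = 0.676 without the 2 farthest libraries), as did Camk2b and Calm3 (r = 0.685, rho = 0.745, and r = 0.864 without 2). Camk2b ran against Camk2g (r = -0.677, rho = -0.648, and r = -0.485 without 2) and against Camk2a (r = -0.653, rho = -0.673, and r = -0.751 without 2). Camk2d and Ppp3ca had r = 0.677 and rho = 0.370, but r = 0.267 without 2, so that relation rested on those libraries. These are the 5 largest of 36 pairs by size of r, given as a description over libraries that share their processing and differ in depth.

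The gene most like each member over the same 10 libraries, among 5183 genes, was found by Pearson r of log2(CPM + 1). For the kinase genes it was Map1a for Camk2a (r = 0.924), Rpl38 for Camk2b (0.952), Enpp5 for Camk2d (0.920) and Fem1b for Camk2g (0.952). For Calm2 it was Mboat7 (r = 0.937) and for Calm3 Gsn (0.962). For Nrgn it was Cacna1g (r = 0.973), for Ppp3ca Hnrnpr (0.939) and for Ppp3r1 Ndufv2 (0.975). Without the 2 farthest libraries these values lay between 0.795 for Enpp5 and 0.951 for Rpl38. Each gene was picked as the highest of 5183 over only 10 libraries, so a high r comes in part from the choice itself. The values without 2 libraries use the same picked pairs and carry the same limit, and no relation was tested.

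The rest of the pathway was described through 7 lists of genes, each count to be read against the 7.62% of genes that rose and the 22.1% that fell in SynSURF. In the sucrose comparison 0 members of any list rose or fell with edgeR. With library totals in SynSURF, S100b (2.07, edgeR adjusted p = 0.00364) was the only gene of any list called higher. Of 12 tested genes of the other CaM kinases and CaMKII regulators, 2 rose, 4 fell and 6 did not pass in SynSURF, with a median log2 fold change of -0.21 that was -1.18 with library totals. Camkk1, the kinase that activates CaMKI and CaMKIV, averaged 2.90 ± 6.32 CPM in sorted and 32.4 ± 9.73 CPM in crude libraries (SD, n = 10 each, log2 fold change -2.80 ± 0.63, edgeR adjusted p = 0.00127). Camk1 (-2.88 ± 0.68, edgeR adjusted p = 0.00207) and Camk4 (-2.71 ± 0.74, edgeR adjusted p = 0.00661) fell too. Camkk1 and Camk1 had counts in only 2 sorted libraries each. Camk2n1, which encodes an inhibitor of CaMKII, averaged 8490 ± 5200 CPM in sorted and 4560 ± 1206 CPM in crude libraries (SD, n = 10 each). Its log2 fold change was 0.90 ± 0.39 (SE, edgeR adjusted p = 0.0873), and -0.12 with library totals. Named after their values were seen, the others called in this list were Dapk1 (-2.63, edgeR adjusted p = 0.00997), Cask (3.72, edgeR adjusted p = 0.0215) and Camkv (1.82, edgeR adjusted p = 0.0366). Dapk1 had counts in only 3 sorted libraries and was -0.95 with voom (limma adjusted p = 0.206). Cask lost its call without sorted replicate 5 (2.61) and was -0.61 with DESeq2 and -1.19 with voom, and Camkv lost its call in 11 of 20 fits that left out 1 library, sorted replicates 5, 7 and 10 and 8 crude libraries among them.

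Of 10 tested calcineurin subunits and regulators, 1 rose, 1 fell and 8 did not pass, with a median of 0.38 that was -0.51 with library totals. Cabin1, a calcineurin inhibitor, rose by 2.90 ± 0.97 (log2, SE, edgeR adjusted p = 0.0251), with 68.2% of its sorted sum in replicate 10. Leaving replicate 10 out gave 1.44 (edgeR adjusted p = 0.141), and a replicate block gave 0.06 (edgeR adjusted p = 0.972). Ppif, a mitochondrial cyclophilin, fell by 1.80 on the log2 scale (edgeR adjusted p = 0.0227). It had counts in only 2 sorted libraries, with 65.3% of its sorted sum in replicate 1. Rcan2, a calcineurin regulator, had 51.8 ± 54.5 CPM in sorted and 53.1 ± 18.5 CPM in crude libraries (SD, n = 10 each).

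Of 15 tested calmodulin-binding IQ proteins and calcium-binding proteins, 3 rose, 1 fell and 11 did not pass, with a median of 0.95 that was -0.0039 with library totals. S100b, a calcium-binding protein of glia, averaged 1059 ± 710 CPM in sorted and 126 ± 57.1 CPM in crude libraries (SD, n = 10 each, log2 fold change 3.07 ± 0.55, edgeR adjusted p = 0.000114), with 9 of 10 sorted values over the highest crude one. Summed oligodendrocyte markers were higher in every sorted library than in any crude one, with log2 fold changes of single markers from -1.36 to 4.05. Of 5 astrocyte markers tested, 4 fell and 0 rose. The part of either cell type in the S100b level was not tested. Hpcal1, a neuronal calcium sensor, rose by 3.21 ± 1.14 (log2, SE, edgeR adjusted p = 0.0345) with 76.7% of its sorted sum in replicate 2, and was 1.25 without it (edgeR adjusted p = 0.311). It also lost the call in 8 fits that left out 1 crude library. Calb1, which encodes calbindin, fell by 2.29 on the log2 scale (edgeR adjusted p = 0.0194), while Pvalb, which encodes parvalbumin and is named after its values were seen, rose by 1.59 ± 0.57 (log2, SE, edgeR adjusted p = 0.0362). Pvalb was 1.01 and not called without sorted replicate 6, and lost its call in 8 fits that left out 1 crude library. Gap43, which encodes a presynaptic calmodulin-binding protein of the same IQ family as neurogranin, had 36.4 ± 76.5 CPM in sorted and 41.05 ± 18.3 CPM in crude libraries (SD, n = 10 each). One sorted library held 65.5% of the sorted sum of Gap43 and 7 of 10 lay below every crude library, and its log2 fold change was -0.06, -1.25 without sorted replicate 2, and -1.66 with voom (limma adjusted p = 0.0318).

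Of 15 tested enzymes that calmodulin switches on, other than CaMKII and calcineurin, 0 rose, 6 fell and 9 did not pass, with a median of -1.82 (0 rose and 11 fell with library totals, median -3.46), which is the same with the gene at 0 in sorted libraries set at its bound. Nos1, the neuronal nitric oxide synthase, had 1 count in all sorted libraries together and 2275 in the crude ones, which is 57.5-fold higher in crude libraries after scaling (95% interval 10.3 to 2271, counting error only). Atp2b3, a plasma membrane calcium pump, had 2 counts in sorted libraries and 5869 in crude ones, 74.1-fold higher in crude libraries (20.5 to 612). Adcy3, an adenylyl cyclase, had 0 counts in sorted libraries and 1591 in crude ones, at least 13.4-fold lower in sorted libraries against a floor of 3 counts over the group. The edgeR adjusted p was 7.98e-06 for Nos1, 1.67e-05 for Atp2b3 and 9.37e-05 for Adcy3.

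Of 11 tested receptors, channels and scaffolds that CaMKII phosphorylates or binds at the synapse, 0 rose, 6 fell and 5 did not pass, with a median of -2.07 that was -2.96 with library totals. Cacna1a, the pore subunit of the P/Q-type calcium channel, averaged 5.24 ± 6.29 CPM in sorted and 74.7 ± 32.5 CPM in crude libraries (SD, n = 10 each, log2 fold change -3.62 ± 0.68, edgeR adjusted p = 0.000174). Grin2a, an NMDA receptor subunit, averaged 22.6 ± 45.4 CPM in sorted and 506 ± 115 CPM in crude libraries (SD, n = 10 each, log2 fold change -4.31 ± 0.91, edgeR adjusted p = 0.00064). Gria1, an AMPA receptor subunit, fell by 2.63 on the log2 scale (edgeR adjusted p = 0.0137). Among the sucrose libraries Grin2a averaged only 20.6 ± 4.15 CPM in sorted and 7.12 ± 2.59 CPM in crude ones (SD, n = 3 each), so its crude level differed widely between the preparations.

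Of 12 tested calcineurin and phosphatase 1 substrates and partners, 3 rose, 2 fell and 7 did not pass, with a median of 0.73 that was -0.47 with library totals. Ppp1ca, a catalytic subunit of phosphatase 1, averaged 3315 ± 1788 CPM in sorted and 979 ± 299 CPM in crude libraries (SD, n = 10 each, log2 fold change 1.76 ± 0.48, edgeR adjusted p = 0.00626). With library totals it was 0.82 and not called (edgeR adjusted p = 0.176). Crtc1, a transcription coactivator that calcineurin dephosphorylates, was called at 3.13 ± 1.09 (SE, edgeR adjusted p = 0.032), but replicate 8 held 90.8% of its sorted sum and the value was -0.67 without it (edgeR adjusted p = 0.535). Crtc1 was tested in 5 of the fits that left out 1 crude library and lost the call in all 5. Amph, which encodes the endocytic protein amphiphysin, had 1 count in sorted libraries and 4054 in crude ones, 102-fold higher in crude libraries (95% interval 18.4 to 4046, counting error only, edgeR adjusted p = 9.38e-06). Named after their values were seen, Ppp1r1b, which encodes a phosphatase 1 inhibitor of striatal neurons, was called at 3.54 ± 1.24 (SE, edgeR adjusted p = 0.0328) with 93.7% of its sorted sum in replicate 6, and was -0.29 without it and -0.05 with DESeq2. Synj1, an endocytic phosphatase, fell by 2.15 on the log2 scale (edgeR adjusted p = 0.0373). Each of these lost its call in 7 fits that left out 1 crude library.

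Of 10 tested messages described as dendritic in the literature, 3 rose, 1 fell and 6 did not pass, with a median of -0.37 that was -1.32 with library totals. Eef1a1, the translation elongation factor, averaged 3886 ± 3603 CPM in sorted and 1199 ± 312 CPM in crude libraries (SD, n = 10 each, log2 fold change 1.70 ± 0.49, edgeR adjusted p = 0.0103). It did not pass without replicates 1 and 4 (0.92, edgeR adjusted p = 0.063). Actb, beta-actin, rose by 1.21 ± 0.43 (log2, SE, edgeR adjusted p = 0.0337) and was 1.05 without replicate 6 (edgeR adjusted p = 0.0611), and it lost the call in 7 fits that left out 1 crude library. Itpr1, an intracellular calcium release channel, lay below every crude library in 10 of 10 sorted libraries, at 137 ± 105 CPM against 549 ± 108 CPM (SD, n = 10 each, log2 fold change -1.99 ± 0.59, edgeR adjusted p = 0.0116). Kif5a, a kinesin named after its values were seen, rose by 1.41 ± 0.51 (log2, SE, edgeR adjusted p = 0.0378), was 0.85 without sorted replicate 1, and lost its call in 11 of 20 fits that left out 1 library. With sorted replicates 1 and 4 left out, the calls in this list were 1 higher and 1 lower, and with library totals they were 0 higher and 3 lower.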

How the data were processed

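Groups come from the sample titles. The authors deposited estimated counts (expected counts) and TPM per gene symbol for both preparations. Per the submitters' processing notes, fastp, HISAT2, GRCm38 and GRCm39 were named with no role, and the sources used here do not give the counting tool, annotation or strand setting. The 7278 (SynSURF) and 4660 (sucrose) values that were not whole were rounded. No 2 libraries had identical columns, and 18 further per-sample columns stayed out.

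Each preparation was fitted alone in edgeR 4.0.16 (R 4.3.3) and tested by quasi-likelihood: TMM factors, filterByExpr, group only, Benjamini-Hochberg over all genes tested, threshold 0.05. The difference of effects came from 1 fit over the 23466 symbols in both tables. The fits were also run on simulated counts with larger changes than those fitted for the members. That run does not show whether changes of the members' size would be found. Alternatives used DESeq2 1.42.0, limma 3.58.1 (voom with sample weights), other scalings and filters, a replicate block, thinning and left-out libraries, and deposited TPM for the order of levels. Intervals of log2 fold changes come from the edgeR fit and include the spread between libraries. Poisson intervals, intervals of count ratios and floors (3 counts) cover counting error only, and PCR copies are not independent molecules.

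The members and lists were chosen with earlier results of these data known. All 9 members were named, and so were up to 3 called genes per list with the lowest adjusted p, Ppp3cb, Camk2n1, Gap43, Rcan2, and the 1 gene most like each member among those with a mean of at least 20 CPM, predicted-gene and clone names left out. Genes named after their values were seen are marked. In the sucrose set, same-numbered sorted and crude libraries deviated together from their group means (correlations 0.336, 0.473 and 0.323 across genes), so the numbers were taken to pair them. That pairing was used only to describe the order within pairs. The SE, intervals and p-values given above for sucrose come from the fit on group only. One gene of this rule and of the lists is not reported here. Lengths and positions are from GENCODE M21.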

Additional observations from a re-analysis of the deposited data

Results flagged for a closer look

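A library stood far from the rest of its group of 10 in 5 of 20 gene and group combinations examined in SynSURF. The rule was a gap to the next library of more than 0.466 of the range. It flags about 1 in 20 groups only where values are normally distributed. Sorted CPM were skewed, as for Camk2a with a mean of 414 and a median of 86.0, so an excess over chance is not shown. Camk2a had 2642 CPM in sorted replicate 6, with the next library at 812 CPM. Camk2d had 357 CPM in sorted replicate 1, with the next at 57.4 CPM. Calm3 had 688 CPM in sorted replicate 10, with the next at 349 CPM. Ppp3cb had 4135 CPM in sorted replicate 4, with the next at 1851 CPM. Among the crude libraries, Ppp3r1 had 668 CPM in replicate 2, with the next at 416 CPM. The outlying sorted values thus fell in 4 different libraries, each for another gene.

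The sorted-against-crude effect differed between the preparations for 9 of the pathway genes named by rule and for 0 of the 9 members. Those pathway genes were picked by their adjusted p in the SynSURF comparison, and that effect is part of this difference. The members were fixed by name, so the counts cannot be set against each other. As the SynSURF effect minus the sucrose effect on the log2 scale, from edgeR, the difference was lower for Camkk1 (-3.57, adjusted p = 0.0241), Camk1 (-3.21, adjusted p = 0.0437), Cacna1a (-5.10, adjusted p = 0.00256) and Grin2a (-6.15, adjusted p = 0.011). The crude level of Grin2a was 506 CPM in SynSURF and 7.12 CPM in sucrose libraries, and whether both tables were counted with the same annotation is not given in the sources used here, so its value may not compare like with like. It was also lower for genes with 0 to 2 counts in the SynSURF sorted libraries together, whose fitted size depends on the prior count: Nos1 (-7.19, adjusted p = 0.000655), Atp2b3 (-6.62, adjusted p = 0.0016), Amph (-6.67, adjusted p = 0.00103) and Adcy3 (-9.66, adjusted p = 0.00331). It was higher for S100b (2.77, adjusted p = 0.0411). Among list genes outside the naming rule, it was lower for Dapk1 (-3.41, adjusted p = 0.0431). Ppp3cc, Cabp1, Atp2b1, Pde1c, Grin1 and Shank1, named after their values were seen, were called lower too. Over all genes tested, 17.3% were lower and 0.299% higher in that comparison.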

How the results depend on the processing

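Of 269 refits of the members in SynSURF, 244 kept the direction and the side of the threshold, as did 111 of 117 in sucrose and 245 of 261 for the difference. The causes of the changes were not tested. With library totals, SynSURF had 100 genes higher and 2592 lower; Camk2a was -0.0895, Calm2 -0.18, Ppp3r1 -0.81 and Camk2d -1.85 (adjusted p = 0.0158). DESeq2 called 3070 genes (2587 lower), with Camk2a -0.73, Calm2 1.06, Nrgn 1.41, Crtc1 -0.73, Cask -0.61 and Ppp1r1b -0.0456. Voom gave 77 higher and 2610 lower, with Camk2a -0.76, Camk2d -1.45 (adjusted p = 0.0207), Ppp3r1 -0.51, Cabin1 -0.10, Hpcal1 -0.32, Cask -1.19 and Ppp3cb -1.99. No filter gave 4417 calls (816 higher, 3601 lower) and Ppp3r1 -0.23, and a mean of at least 5 CPM gave 3263 (768 higher, 2495 lower) and Ppp3r1 -0.0094. When crude counts were thinned to sorted depth, only 1740 genes were tested and 400 called (214 higher, 186 lower); Calm2 was 1.28 (adjusted p = 0.025), Nrgn 1.62 (adjusted p = 0.0242) and Ppp3ca 0.0476, and Camk2d, Camkk1, Camk1, Camk4, Cabin1, Ppif, Hpcal1, Calb1, Gap43, Rcan2, Nos1, Atp2b3, Adcy3, Cacna1a, Crtc1, Amph, Dapk1, Cask, Pvalb and Ppp1r1b were not tested. Without sorted replicates 1 and 4, 2346 genes were lower, Camk2d was -1.48 and Ppp3cb -2.23.

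In SynSURF a replicate block gave 37 genes higher and 2640 lower, with Camk2a -0.90, Ppp3r1 -0.36, Hpcal1 -0.59, Crtc1 -1.18, Cask -1.19 and Ppp1r1b -0.43. It also ended the calls of Cabin1 (0.06), Eef1a1 (1.23, adjusted p = 0.078), Actb (1.24, adjusted p = 0.114), Camkv (1.27), Pvalb (1.203) and Kif5a (0.95). There the same-number correlations ran from 0.0558 to 0.186. Of the crude libraries, 8 of 10 correlated best with the sorted library of their own number. The correlations were low, but the matches point to a pairing by number that the main SynSURF fit leaves out. In sucrose the replicate block called 1 gene (lower), as did DESeq2, no filter and 1 leave-one-out fit, and it changed no call of a member. With that block 939 genes reached an unadjusted p under 0.05, against 324 without it. Camk2a was then 0.80, Camk2b 0.17, Camk2d 0.33, Camk2g 0.52 and Calm2 -0.45. Calm3 was -0.28, Nrgn -0.27, Ppp3ca -0.41 and Ppp3r1 -0.12. The lowest edgeR adjusted p of a member was 0.472, for Camk2a. Library totals gave 3033 calls in the difference (21 higher, 3012 lower) and Camk2g -0.44, and the block gave 10 higher and Camk2g -0.40.

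Leaving out 1 library at a time, SynSURF calls higher ran from 307 to 621 (307 to 333 without crude replicate 1, 3, 4, 5, 7, 8 or 10), sucrose calls from 0 to 1 (without crude replicate 2) and difference calls higher from 16 to 52 (16 to 18 without any 1 sucrose sorted library, 49 and 52 without SynSURF sorted replicates 5 and 2); the last was an alternative added after seeing the data, as was TPM for the order. In SynSURF, Camk2a ran from -0.40 to 1.07, Nrgn from 1.05 to 1.45, Ppp3r1 from -0.32 to 0.25 Crtc1 from -0.67 to 3.29 and Ppp1r1b from -0.29 to 4.04. In sucrose, Camk2b ran from -0.27 to 0.58, Calm3 from -0.81 to 0.25, Nrgn from -0.94 to 0.46 and Ppp3r1 from -0.33 to 0.13. In the difference, Camk2a ran from -1.44 to 0.16, Camk2d from -2.18 to -0.67, Camk2g from -0.0816 to 0.39, Ppp3ca from -0.24 to 0.0732 and Ppp3r1 from -0.58 to 0.0870. In the SynSURF crude order, 5 members changed place per median transcript length and 4 with deposited TPM. Depth limits the SynSURF sorted values: the median sorted library held 5.5 counts of Camk2a and 3.5 of Camk2d.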
